A study of Drosophila melanogaster with 12 samples.

Results

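Described here are 10 Drosophila melanogaster genes of cyclic nucleotide signalling, out of 17868 in the count table, found by an exact match of the gene symbol. They are the phosphodiesterase genes Pde8, Pde1c, Pde6, Pde9, Pde11 and dnc, the calcium- and calmodulin-activated adenylyl cyclase gene rut, the main protein kinase A catalytic subunit gene Pka-C1, and the regulatory subunit genes Pka-R1 and Pka-R2. Pde8 was chosen by its level in these libraries, higher in SOD2i than in Control, and the others as genes of the same pathway, so the SOD2i difference of Pde8 is given as a description, with no test. Its other comparisons with Control or SOD2i reuse some of those libraries and are not independent of the choice. Among the pairs of genotypes compared, the double genotype (Drp1SG;SOD2i) against Drp1SG has neither group as a side. Its spread was estimated over all 12 libraries, Control and SOD2i included.

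Cyclic AMP and cyclic GMP are small messengers made inside cells by adenylyl and guanylyl cyclases and broken down by cyclic nucleotide phosphodiesterases. Protein kinase A is held inactive by its regulatory subunits until cyclic AMP binds them and frees the catalytic subunits. In Drosophila the pathway is best known from learning mutants of the phosphodiesterase gene dnc and the cyclase gene rut, and in embryos and discs protein kinase A acts in Hedgehog signalling.

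The study measured polyadenylated RNA in embryos at cellularization and gastrulation in 4 genotypes with 3 biological replicates each, 12 libraries in all. The genotypes were Control, Drp1SG, SOD2i and Drp1SG;SOD2i, called the double genotype from here on. Drp1 encodes the GTPase that divides mitochondria and Sod2 the superoxide dismutase of the mitochondrial matrix. The name SOD2i is taken to mean RNA interference against Sod2. The labels give no meaning for the letters SG, no driver, insertion or age of the mothers, and no further description of the Control. Each replicate was a pool of 70 to 100 embryos sorted by eye. Genotypes with many eggs were collected for 1 h and aged for 1.5 to 2 h, and the others were collected for 2.5 to 3 h, all at 28 C. Which genotype had which window is not given, so the window and the genotype cannot be told apart.

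Libraries held 61757756 to 91949037 reads in genes, so that 1 CPM (a read count scaled by library size with the TMM method) stood for 60.1 to 95.7 reads. Mean Sod2 was 50.8 CPM in Control, 49.5 in Drp1SG and 1.82 in SOD2i, with 3.04 in the double genotype, and mean Drp1 was 36.0, 84.0, 22.1 and 43.6 CPM in the same order. Of 9 genes that mark whole embryos of these stages, slam, twi, sna, fog, eve and ftz were present in every library, while nullo, bnk and Sry-alpha were listed at 0 throughout. Their summed level was 1495 to 2696 CPM in Control, 1353 to 1627 in Drp1SG, 2548 to 2645 in SOD2i and 1863 to 2300 in the double genotype. A gene is named as called, or as having risen or fallen, where edgeR's quasi-likelihood test gave a Benjamini-Hochberg adjusted p under 0.05 over 9863 tested genes. All 10 genes passed the filter on low counts. Values after ± are SDs for levels in CPM and standard errors for log2 fold changes. In these whole-embryo libraries, fewer cells of a type and less RNA per cell cannot be told apart.

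The most abundant members in Control were Pka-C1, Pka-R1 and Pde9. Divided by annotated exon length, mean Control levels were 57.5 CPM per kb for Pka-C1, 26.3 for Pka-R1 and 14.4 for Pde9. They were 4.08 CPM per kb for Pde11, 1.68 for Pka-R2, 1.51 for Pde8 and 1.26 for dnc, and 0.417 for rut, 0.250 for Pde1c and 0.0624 for Pde6. The Control ranges of Pka-R2, Pde8 and dnc overlapped, so the order among these genes is not resolved, whereas the Control ranges of all other neighbours in the order did not overlap.

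**Figure D1:**
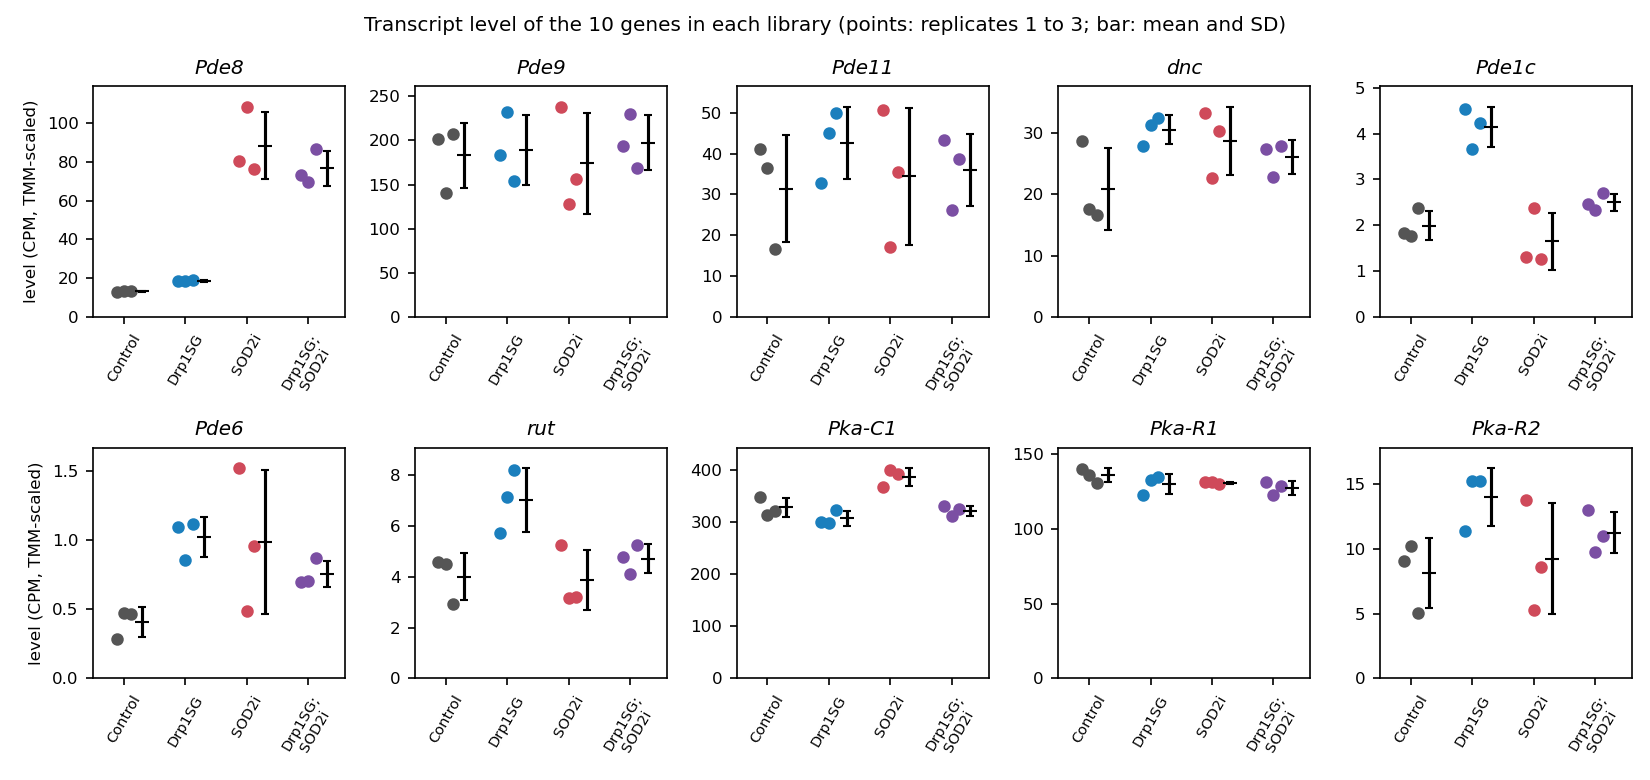
Level of each of the 10 genes in CPM (vertical axes, each starting at 0 with its own scale) in the 12 libraries by genotype. Points are replicates 1 to 3 and the bar is their mean and SD. Pde8 lies at 13.0 to 13.5 CPM in Control and at 69.5 to 108 CPM in the libraries of both SOD2i genotypes.

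Pde8 is the Drosophila relative of mammalian PDE8, an enzyme that in mammals breaks down cyclic AMP with high affinity. Pde8 (Dmel_CG45019) stood at 13.0, 13.1 and 13.5 CPM in the 3 Control libraries and at 18.4, 18.3 and 19.2 CPM in Drp1SG. In SOD2i it stood at 80.4, 108 and 76.5 CPM, and in the double genotype at 73.4, 69.5 and 86.8 CPM. Every library of SOD2i and of the double genotype thus lay far above every library of Control and Drp1SG, and the lowest of them, double replicate 2, was still above the highest Drp1SG library. The means were 13.2 ± 0.269 CPM in Control, 18.7 ± 0.511 in Drp1SG and 88.4 ± 17.4 in SOD2i, with 76.6 ± 9.11 in the double genotype (SD, n = 3 each). The spread of SOD2i came largely from its replicate 2.

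As a description, the SOD2i mean was 6.70-fold that of Control, a log2 fold change of 2.74 ± 0.13. The order by log2 fold change put Pde8 at place 111 of 9863 tested genes in that comparison. In the double genotype Pde8 was 5.81-fold the Control mean, with a log2 fold change of 2.54 ± 0.13 (edgeR adjusted p = 4.92e-07), and every double library was above every Control library. This comparison reuses the Control libraries by which the gene was chosen, so its p-value is not independent of the choice. Set against Drp1SG, whose libraries had no part in choosing the gene, the double genotype was 4.10-fold higher, a log2 fold change of 2.04 ± 0.13 (edgeR adjusted p = 2.88e-06). That value lay between 1.94 and 2.11 when any library of these groups was left out, and Pde8 held place 130 of 9863 in that comparison. The summed level of the stage markers was also higher in every double library than in every Drp1SG library. In Control that sum lay at 1495 to 2696 CPM and Pde8 at 13.0 to 13.5 CPM. The part of the stage markers in the Pde8 difference was not tested.

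Without SOD2i, Pde8 differed less. Drp1SG was 1.41-fold the Control mean, a log2 fold change of 0.50 ± 0.13 (edgeR adjusted p = 0.0175), and the 3 Drp1SG libraries did not overlap with the 3 Control libraries. With single libraries left out the adjusted p lay between 0.0349 and 0.0474. The Control libraries here are also those by which the gene was chosen, so these p-values are not independent of the choice. Between the double genotype and SOD2i the libraries overlapped, and no difference in Pde8 was called (log2 fold change -0.21 ± 0.12, edgeR adjusted p = 0.272). The log2 gain with SOD2i was thus 2.74 over Control and 2.04 over Drp1SG, a difference of -0.71 ± 0.18 that reuses the libraries by which the gene was chosen and is given as a value.

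The summed level of neuronal marker genes was also higher in SOD2i than in Control, though not in the double genotype. All 5 listed neuronal markers (elav, nSyb, Syt1, brp and futsch) were tested, and their summed level was 10.9 to 13.3 CPM in Control, 12.2 to 16.9 in Drp1SG, 16.8 to 20.6 in SOD2i and 10.6 to 12.4 in the double genotype. The level of elav lay between 0 and 1.43 CPM over the libraries. Pde8 was at 69.5 to 86.8 CPM in the double genotype, where the neuronal sum lay within or just under the Control range. The part of these markers in the SOD2i values of Pde8, or of Pde6 and Pka-C1 given further on, was not tested.

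Set against the other phosphodiesterase genes per exon length, Pde8 was a minor transcript in Control and a major one with SOD2i. Its mean was 1.51 CPM per kb in Control, 2.14 in Drp1SG and 10.2 in SOD2i, with 8.80 in the double genotype. It made up 7.12 ± 1.03% of the summed level per kb of the 6 phosphodiesterase genes in Control, 8.63 ± 1.14% in Drp1SG and 34.5 ± 11.3% in SOD2i, with 28.4 ± 3.88% in the double genotype. By library the share was 6.03% to 8.08% in Control, 25.0%, 47.0% and 31.6% in SOD2i, and 26.9%, 25.5% and 32.8% in the double genotype. Pde8 exceeded Pde9, the most abundant of the 6 in every other library, in SOD2i replicate 2 (12.4 against 10.1 CPM per kb). The sum itself averaged 21.6 ± 3.04 CPM per kb in Control, 25.1 ± 3.09 in Drp1SG and 30.4 ± 5.70 in SOD2i, with 31.0 ± 0.524 in the double genotype. These shares follow from the difference by which Pde8 was chosen and are given with no test.

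**Figure D2:**
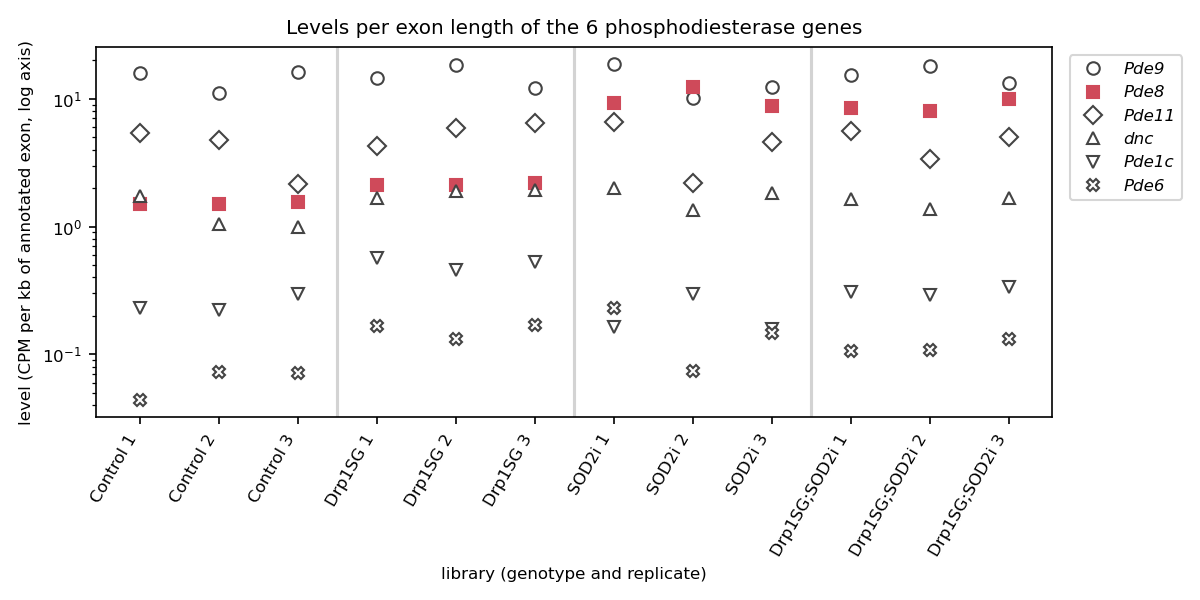
Level of the 6 phosphodiesterase genes per kb of annotated exon (log axis) in each of the 12 libraries, with Pde8 as filled squares. Pde8 lies near dnc and below Pde11 in Control, and second to Pde9 in the SOD2i and double libraries except SOD2i replicate 2, where it is first.

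Pde1c, Pde6 and rut, the members of lowest level, rose in Drp1SG. Of the 10 genes, 4 rose and 0 fell in Drp1SG against Control (Pde8, Pde1c, Pde6 and rut), where 18.6% of all tested genes were called, 9.72% as higher and 8.83% as lower. The median log2 fold change of the 10 genes was 0.52, against 0.0072 over all tested genes. Of the 9 without Pde8, 3 were called by edgeR and 4 by DESeq2, which added dnc.

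Pde1c encodes a calcium- and calmodulin-regulated phosphodiesterase that accepts both cyclic nucleotides. Pde1c (Dmel_CG44007) stood at 1.84, 1.77 and 2.36 CPM in Control and at 4.53, 3.67 and 4.23 CPM in Drp1SG. Every Drp1SG library was higher than every Control library, 2.08-fold on the means, with a log2 fold change of 1.06 ± 0.23 (edgeR adjusted p = 0.00839). The call was kept without any single library of these groups (highest adjusted p = 0.0322). In SOD2i it stood at 1.30, 2.37 and 1.26 CPM, where replicates 1 and 3 lay below Control and replicate 2 just above it (log2 fold change -0.28 ± 0.23, adjusted p = 0.442). Without SOD2i replicate 2 the difference was -0.64 and was called, with an adjusted p of 0.0283.

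The double genotype stood between the single genotypes for Pde1c on the means, at 2.47, 2.33 and 2.69 CPM. It was below every Drp1SG library, by a log2 fold change of -0.73 ± 0.23 that edgeR did not call (adjusted p = 0.0618) and that was called by DESeq2, in the fit with the maternal index and when only these groups were fitted. The difference from SOD2i was not called either (0.60 ± 0.23, edgeR adjusted p = 0.0905), and it was called without SOD2i replicate 2 (edgeR adjusted p = 0.00603). It was also called by DESeq2 (Wald test adjusted p = 0.0478) and in the fit with the maternal index (edgeR adjusted p = 0.00311). In the annotation the span of Pde1c overlaps 18 other genes, among them esc. Whether strand was used in counting is not stated, so reads of overlapping genes could have been assigned to either.

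Pde6 encodes a phosphodiesterase that breaks down cyclic GMP in Drosophila renal tubules. Pde6 (Dmel_CG8279) was the rarest member, at 0.285, 0.473 and 0.466 CPM in Control, which stands for 18, 32 and 28 reads. Its annotated span overlaps 5 other genes, among them Cyp313a1, so some of these few reads could belong to an overlapping gene. It was at 1.09, 0.857 and 1.12 CPM in Drp1SG and at 1.52, 0.484 and 0.954 CPM in SOD2i. In both genotypes every library lay above every Control library, but SOD2i replicate 2 exceeded the highest Control library by less than the spread among the Control libraries. Pde6 was 2.49-fold the Control mean in Drp1SG (log2 fold change 1.32 ± 0.37, edgeR adjusted p = 0.0275) and 2.41-fold in SOD2i (1.27 ± 0.37, edgeR adjusted p = 0.0279).

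Both Pde6 calls depended on single libraries. The Drp1SG call was lost without Control replicate 1, 2 or 3 or Drp1SG replicate 1 or 3 (highest adjusted p = 0.0831), and in the fit with the maternal index. The SOD2i call was lost without Control replicate 1, 2 or 3 or SOD2i replicate 1 or 3 (highest adjusted p = 0.102) and when only these groups were fitted, and the authors' deposited table gives an adjusted p of 0.0613 there. The double genotype, at 0.693, 0.702 and 0.866 CPM, was above every Control library without being called (log2 fold change 0.88 ± 0.37, edgeR adjusted p = 0.170).

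The remaining phosphodiesterase genes were not called in any of the comparisons. Pde9, whose mammalian relative is specific for cyclic GMP, ranged over the 12 libraries from 128 CPM in SOD2i replicate 2 to 238 CPM in SOD2i replicate 1. Its means of 183 ± 37.1 CPM in Control, 189 ± 39.5 in Drp1SG and 174 ± 57.1 in SOD2i, with 197 ± 31.1 in the double genotype, differed by less than the spread among replicates. The lowest and the highest Pde9 library thus belonged to the same genotype.

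Pde11, whose relatives accept both cyclic nucleotides, stood at 41.2, 36.5 and 16.6 CPM in Control and at 32.9, 45.1 and 50.0 CPM in Drp1SG. It stood at 50.7, 17.0 and 35.6 CPM in SOD2i and at 43.2, 26.1 and 38.6 CPM in the double genotype. Control replicate 3 and SOD2i replicate 2 were far below their partners, and all 4 genotypes overlapped. The log2 fold changes from Control were 0.44 ± 0.39 in Drp1SG and 0.13 ± 0.39 in SOD2i, with 0.20 ± 0.39 in the double genotype (edgeR adjusted p = 0.476, 0.849 and 0.795).

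The gene dnc (Dmel_CG32498) encodes the cyclic AMP-specific phosphodiesterase of the learning mutant dunce, and its annotated span overlaps 9 other genes. It stood at 28.7, 17.6 and 16.6 CPM in Control and at 27.9, 31.4 and 32.5 CPM in Drp1SG, where Control replicate 1 alone reached the Drp1SG range. The log2 fold change of 0.55 ± 0.20 was not called (edgeR adjusted p = 0.0824). Without Control replicate 1 it was 0.84 and was called, with an adjusted p of 0.00662. SOD2i, at 33.3, 22.6 and 30.4 CPM, gave 0.46 ± 0.20 (edgeR adjusted p = 0.127), and without Control replicate 1 gave 0.75 with an adjusted p of 0.00710. Without Control replicate 3 the SOD2i value was 0.30 (edgeR adjusted p = 0.389). With the covariate it was 0.40 and was called (edgeR adjusted p = 0.0336). The double genotype, at 27.4, 22.9 and 27.9 CPM, gave 0.32 ± 0.20 (edgeR adjusted p = 0.373), and 0.61 with an adjusted p of 0.0392 without that library.

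**Figure D3:**
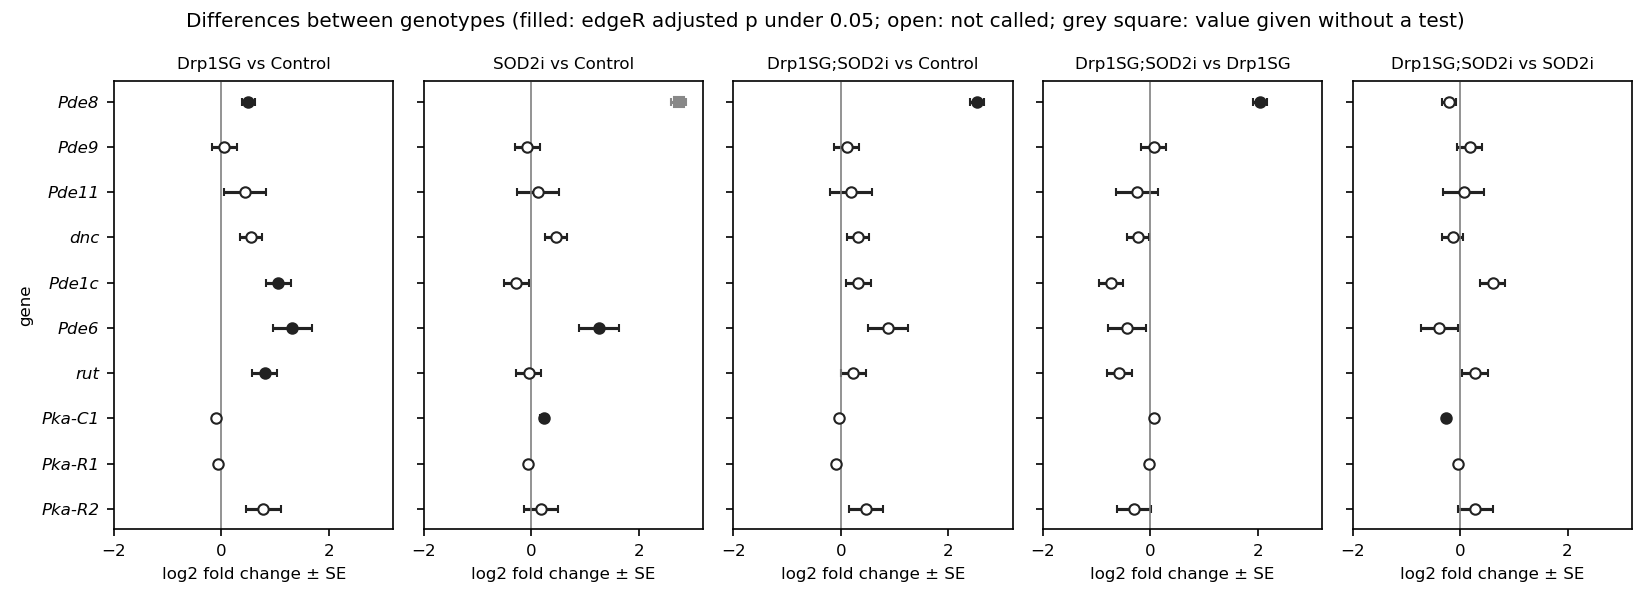
Log2 fold change of each of the 10 genes in 5 comparisons of genotypes, with standard errors. Filled circles were called by edgeR, open circles were not, and the grey square is Pde8 in SOD2i against Control, given with no test. Pde8 stands at 2.54 and 2.04 in the comparisons of the double genotype with Control and with Drp1SG.

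Among the genes of synthesis, rut rose in Drp1SG. The cyclase gene rut (Dmel_CG9533) stood at 4.56, 4.52 and 2.95 CPM in Control and at 5.71, 7.16 and 8.19 CPM in Drp1SG, with no overlap. The means differed 1.75-fold, a log2 fold change of 0.81 ± 0.23 (edgeR adjusted p = 0.0330). The call was lost without Control replicate 2 or 3 or Drp1SG replicate 2 or 3 (highest adjusted p = 0.119), and with the maternal index as a covariate (log2 fold change 0.23, adjusted p = 0.519). SOD2i was at 5.25, 3.18 and 3.21 CPM and the double genotype at 4.77, 4.11 and 5.25 CPM. Every library of the double genotype was below every Drp1SG library, a log2 fold change of -0.58 ± 0.23 that was not called (edgeR adjusted p = 0.145).

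The summed level of germ cell markers was also higher in every Drp1SG library than in any Control library, and some transcripts loaded into the egg rose. The 5 germ cell markers, all tested (nos, pgc, vas, gcl and osk), summed to 46.9 to 108 CPM in Control, 122 to 173 in Drp1SG and 57.2 to 141 in SOD2i, with 102 to 142 in the double genotype. Of 17 tested unstable maternal transcripts, which the early embryo degrades, 7 rose and 0 fell in Drp1SG. In SOD2i 1 rose and 2 fell, and in the double genotype 0 were called. Their median log2 fold changes from Control were 0.88, 0.27 and 0.43 in the same order, against 0.0072, 0.0044 and 0.0049 over all tested genes. Over all tested genes 9.72% rose and 8.83% fell in Drp1SG, and 10.3% rose and 12.8% fell in SOD2i. In the double genotype 8.91% of all tested genes were called. The genes nos and osk are on both lists. The part of these markers in the rises of Pde1c, Pde6 and rut in Drp1SG was not tested. In the fit with the maternal index, the mean log2 CPM of the 17 maternal transcripts, Pde1c kept its call and Pde6 and rut did not. Every Drp1SG library had a higher index than every other library. That fit can thus tell the index and the genotype apart only in part.

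Pka-C1 and Pka-R1 were steadier among replicates than the phosphodiesterase genes, and the changes of Pka-C1 were small. The catalytic subunit gene Pka-C1 (Dmel_CG4379) stood at 350, 315 and 322 CPM in Control, 301, 298 and 324 CPM in Drp1SG, 367, 400 and 392 CPM in SOD2i and 331, 312 and 325 CPM in the double genotype. Every SOD2i library was above every library of the other genotypes. The SOD2i mean was 1.18-fold that of Control, a log2 fold change of 0.23 ± 0.06 (edgeR adjusted p = 0.0178). The double genotype was lower than SOD2i, with a log2 fold change of -0.26 ± 0.06 (edgeR adjusted p = 0.0132).

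Both Pka-C1 calls depended on single libraries. The rise in SOD2i was lost without Control replicate 2 or 3 or SOD2i replicate 2 or 3 (highest adjusted p = 0.0714), under upper-quartile scaling and when only these groups were fitted, and the authors' deposited table gives an adjusted p of 0.105. The difference between the double genotype and SOD2i was lost without SOD2i replicate 3 or double replicate 2 (highest adjusted p = 0.0619).

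Pka-C1 and Pde6 were the 2 genes of the 9 other than Pde8 that rose in SOD2i against Control, and 0 fell, where 23.2% of all tested genes were called, 10.3% as higher and 12.8% as lower. Over all tested genes these were 1019 higher and 1267 lower calls, against 632 and 1435 under upper-quartile scaling. The median log2 fold change of the 9 was 0.13, against 0.0044 over all tested genes. In the double genotype against Control, 1 of the 10 genes rose (Pde8) and 0 fell, with 8.91% of all tested genes called, 4.62% as higher and 4.29% as lower. Of the other 9, 0 were called by edgeR, 0 by DESeq2, and 1 (Pde6) had an unadjusted p under 0.05.

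Pde8 was also the 1 gene of the 10 that rose in the double genotype against Drp1SG, with 0 lower, where 10.9% of all tested genes were called, 5.05% as higher and 5.82% as lower. Among the other 9, 0 were called by edgeR, 1 by DESeq2 (Pde1c), and 2 (Pde1c and rut) had an unadjusted p under 0.05. Between the double genotype and SOD2i, 1 of the 10 fell (Pka-C1) and 0 rose, where 19.3% of all tested genes were called, 10.5% as higher and 8.79% as lower (1036 and 867 genes, against 1059 and 566 under upper-quartile scaling). In the interaction of both changes, 1 of the 9 genes other than Pde8 was called, as negative (Pde6), where 16.5% of all tested genes were called, 9.2% as positive and 7.34% as negative (907 and 724 genes, against 1013 and 465 under upper-quartile scaling).

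Of the regulatory subunit genes, Pka-R1 (Dmel_CG42341) lay between 122 and 140 CPM in all 12 libraries. Its means were 136 ± 4.66 CPM in Control, 130 ± 6.70 in Drp1SG and 131 ± 0.622 in SOD2i, with 127 ± 4.62 in the double genotype, and it was not called in any comparison. Pka-R2 (Dmel_CG15862) varied far more, at 9.10, 10.2 and 5.08 CPM in Control, 11.4, 15.3 and 15.3 CPM in Drp1SG, 13.8, 5.29 and 8.59 CPM in SOD2i and 13.0, 9.77 and 11.0 CPM in the double genotype. Every Drp1SG library was above every Control library. The log2 fold change of 0.78 ± 0.32 was not called (edgeR adjusted p = 0.115), while the authors' deposited table gives an adjusted p of 0.0186.

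The members thus differed widely in how closely replicates of a genotype agreed. The standard deviation of log2 CPM within genotypes was 0.052 for Pka-R1, 0.065 for Pka-C1 and 0.16 for Pde8, against a median of 0.19 over all tested genes. It was 0.28 for dnc, 0.29 for Pde1c, 0.31 for rut, 0.33 for Pde9, 0.46 for Pde6, 0.47 for Pka-R2 and 0.59 for Pde11.

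**Figure D4:**
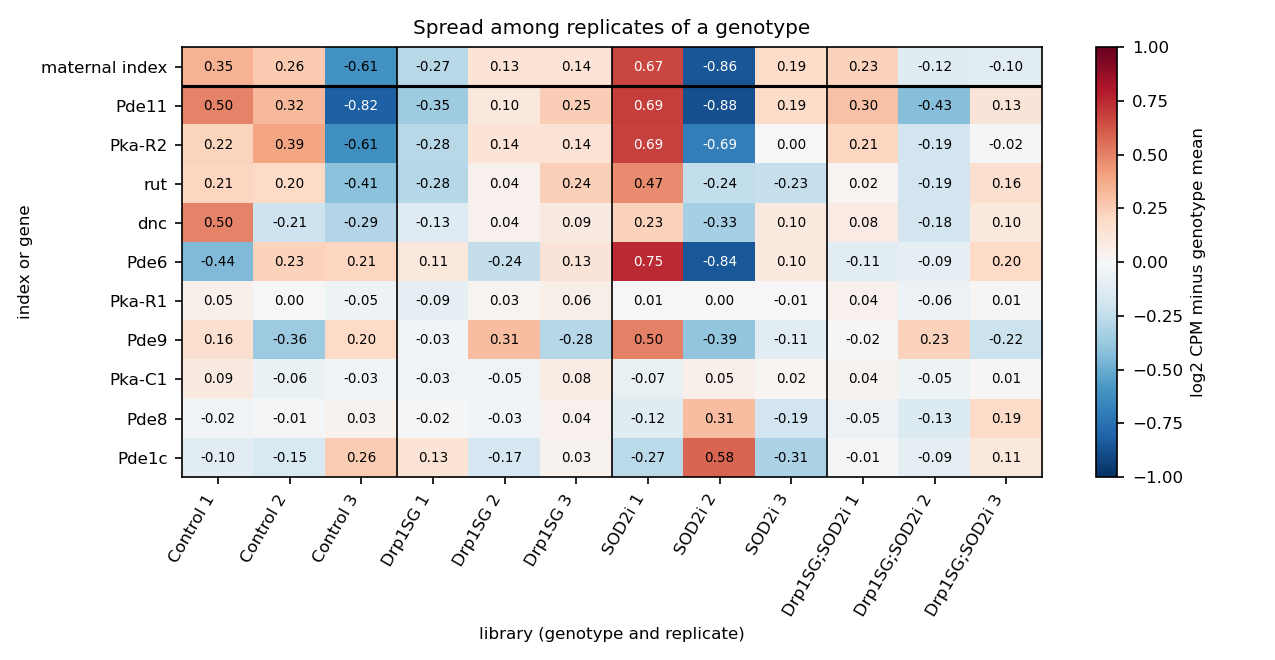
Deviation of log2 CPM from the genotype mean for the maternal index (top row) and the 10 genes (other rows) in each of the 12 libraries, with the value in each cell. Pde11 and Pka-R2 are lowest, and the index too, in Control replicate 3 and SOD2i replicate 2, where Pde1c is high.

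Pde11 and Pka-R2 followed the maternal transcripts among replicates with a Pearson r of 0.8 or more, as did 11.7% of all tested genes. The log2 CPM of the 17 tested maternal transcripts was averaged into a maternal index, which was 4.29, 4.20 and 3.34 in Control, 4.84, 5.25 and 5.26 in Drp1SG, 4.75, 3.22 and 4.27 in SOD2i and 4.66, 4.31 and 4.33 in the double genotype. The index was lowest in Control replicate 3 and SOD2i replicate 2, and every Drp1SG library was above every library of the other genotypes. The relation of each of the 10 genes to the index was computed on deviations from the genotype means in the 12 libraries, with exact permutation within genotypes and adjustment over the 10 relations.

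Pde11 followed the index most closely by rank, with Pearson r = 0.96 and Spearman rho = 0.98 (exact permutation p = 0.0007716 for each, the smallest these permutations can give, adjusted p = 0.007716). Leaving out Control replicate 3 and SOD2i replicate 2, which lay farthest from the median, gave r = 0.91. Pka-R2 gave r = 0.97 and rho = 0.97 (exact permutation p = 0.003858 and 0.003086, adjusted 0.01929 and 0.01543), and r = 0.94 without those libraries. For rut, r and rho were both 0.79 (exact permutation p = 0.01775 and 0.009259, adjusted 0.04438 and 0.03086), with r = 0.74 without them.

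Pka-R1 gave a weaker relation, with r = 0.49 and rho = 0.56 (exact permutation p = 0.01312 and 0.02778, adjusted 0.04373 and 0.06945) and r = 0.58 without those libraries, on a spread of only 0.052 in log2 CPM. For Pde1c the sign was negative, with r = -0.89 and rho = -0.77 (exact permutation p = 0.03086 and 0.04398, adjusted 0.06172 and 0.08796), and r = -0.69 without the libraries farthest out. The relations of dnc (r = 0.75, adjusted exact permutation p = 0.07458) and Pde8 (r = -0.66, adjusted exact permutation p = 0.2227) did not pass either. Values of r for Pde6, Pde9 and Pka-C1 were 0.51, 0.37 and -0.12. Over all 9863 tested genes the median r was -0.18, and 11.7% had an r of 0.8 or more. The 12 deviations share their genotype means and library scaling.

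Once the index entered the edgeR fit as a covariate, the value of Pde11 in Drp1SG against Control changed from 0.44 to -0.82 and was called as lower (adjusted p = 0.00407). That of Pka-R2 changed from 0.78 to -0.25. Every Drp1SG library had a higher index than every Control library, so the covariate and the genotype can only be told apart in part.

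Other genes of the pathway were taken from a list of 38 genes, of which 36 were matched and 30 tested. The other 2, Akap1 and yu, were not analysed here. In Drp1SG 3 of the 30 rose and 1 fell, in SOD2i 3 rose and 6 fell, and in the double genotype 2 rose and 0 fell, all against Control. Over all tested genes 18.6%, 23.2% and 8.91% were called in these comparisons, so the counts are not read as particular to the pathway. Their median log2 fold changes were 0.049, 0.062 and 0.0044 in the same order. The double genotype differed from Drp1SG in 0 higher and 1 lower, and from SOD2i in 4 higher and 3 lower genes. Over all tested genes 10.9% and 19.3% were called in these comparisons, and these counts are not read as particular to the pathway either.

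Adenylyl cyclases make the messenger that Pde8 is thought to remove. Of the 8 tested adenylyl cyclases of this list, which leaves out rut, 1 rose and 4 fell in SOD2i against Control. Over all tested genes 23.2% were called there. In Drp1SG 0 of these 8 rose and 1 fell. In the double genotype 0 of them were called by edgeR or by DESeq2 and 0 had an unadjusted p under 0.05. Ac78C stood at 170, 170 and 163 CPM in Control and at 240, 334 and 242 CPM in SOD2i, all higher than in any Control library (log2 fold change 0.70 ± 0.14, edgeR adjusted p = 0.00355). It was at 141, 177 and 141 CPM in the double genotype, a log2 fold change of -0.83 ± 0.14 from SOD2i (edgeR adjusted p = 0.00211). The Ac78C libraries of the double genotype thus lay on both sides of the Control range, whereas those of Pde8 lay far above it.

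The 4 cyclase genes that fell in SOD2i were all at trace levels. Ac76E fell from 0.467 CPM in Control, 90 reads over 3 libraries, to 0.0496 CPM and 10 reads in SOD2i (edgeR adjusted p = 2.16e-04), and in Drp1SG to 0.173 CPM (adjusted p = 0.0140). ACXA, ACXC and ACXD belong to a group of cyclases known from the male germ line, and their Control means were 0.318, 0.281 and 0.308 CPM against 0.0612, 0.0582 and 0.0810 CPM in SOD2i. ACXC had the largest adjusted p of the 5 and is named after its value was seen. The calls of ACXA and ACXC were lost without any of the 3 Control libraries and without SOD2i replicate 2, and also without SOD2i replicate 3 for ACXA and replicate 1 for ACXC, with a highest adjusted p of 0.0826 and 0.105. That of Ac76E in Drp1SG was lost without Control replicate 1 or 2 or Drp1SG replicate 2 (highest adjusted p = 0.0663).

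**Figure D5:**
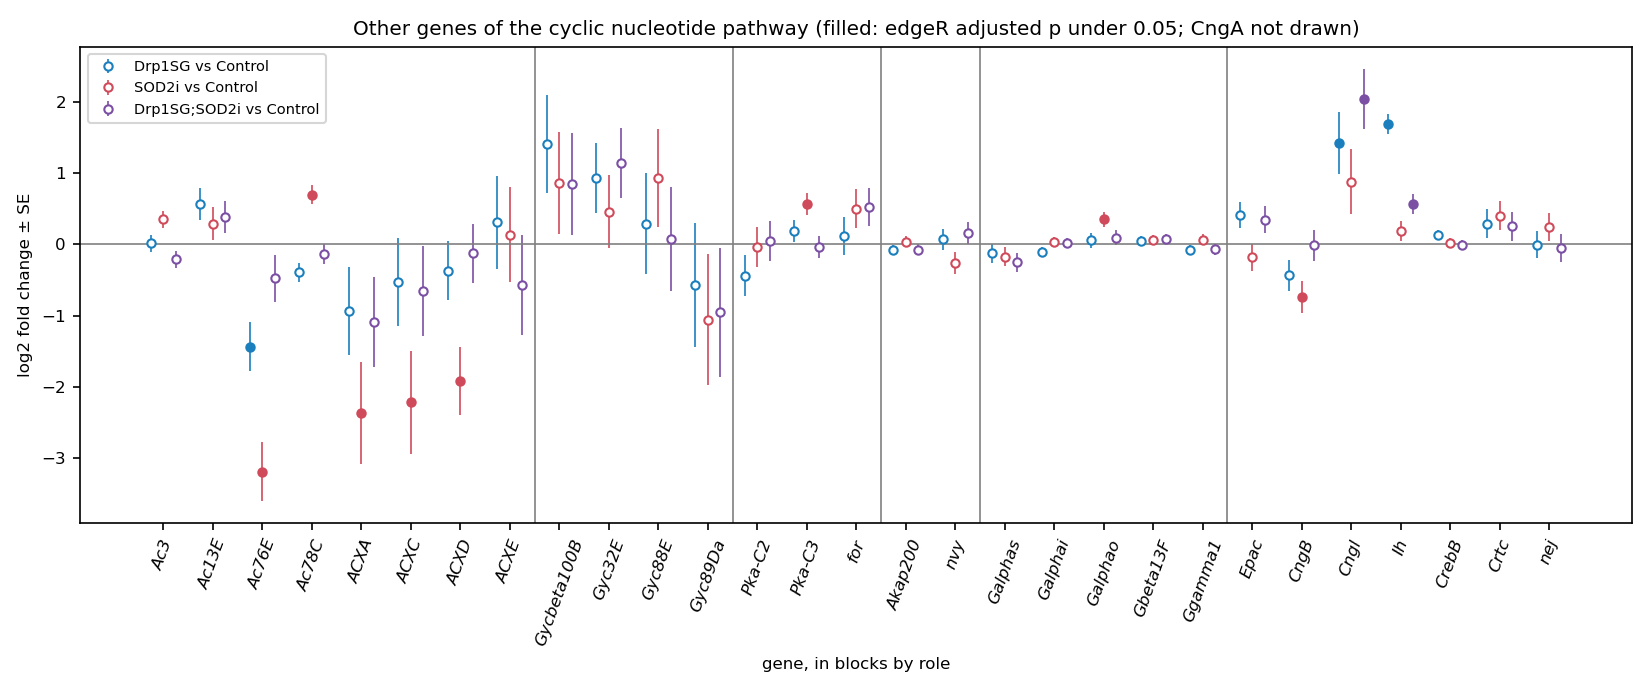
Log2 fold change against Control, with standard errors, of 29 of the 30 tested pathway genes in Drp1SG, SOD2i and the double genotype, in blocks by role. Filled points were called by edgeR. The points farthest below 0 are cyclase genes in SOD2i at trace levels, and Ih in Drp1SG stands at 1.69. CngA, which had 0 reads in SOD2i, is not drawn.

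Of the 4 channel genes listed, Ih, CngA and Cngl rose in Drp1SG and CngB was not called (log2 fold change -0.44 ± 0.22, edgeR adjusted p = 0.191), while CngA and CngB fell in SOD2i. Ih, which encodes a hyperpolarization-activated cation channel that binds cyclic AMP, stood at 8.64, 6.78 and 8.56 CPM in Control and at 27.3, 23.8 and 26.1 CPM in Drp1SG. The difference was 3.22-fold, a log2 fold change of 1.69 ± 0.14 (edgeR adjusted p = 1.52e-05). In the double genotype Ih stood at 13.1, 11.5 and 10.9 CPM, below Drp1SG by a log2 fold change of -1.12 ± 0.14 (edgeR adjusted p = 4.34e-04). It was above Control by 0.57 ± 0.14 (edgeR adjusted p = 0.0300), a call lost without Control replicate 2 or 3 or double replicate 1 or 2 (highest adjusted p = 0.0922). Ih thus rose in Drp1SG and was lower in the double genotype than in Drp1SG, while Pde8 was higher with SOD2i in both backgrounds. Mean Drp1 was itself 43.6 CPM in the double genotype against 84.0 in Drp1SG, and its part in these differences was not tested.

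CngA, a subunit of cyclic nucleotide-gated channels, stood at 0.190, 0.355 and 0.316 CPM in Control, at 2.95, 2.31 and 0.785 CPM in Drp1SG, at 0.722, 0.430 and 1.16 CPM in the double genotype and at 0 reads in SOD2i. Against a floor of 3 counts, 0.0468 CPM in the SOD2i library of smallest scaled size, it was at least 6.13-fold higher in Control and at least 16.5-fold higher in the double genotype. Its rise in Drp1SG over Control was called (edgeR adjusted p = 0.00694), as was its fall in SOD2i (edgeR adjusted p = 0.00442). The related CngB fell in SOD2i, from 5.66 ± 0.941 to 3.39 ± 1.20 CPM (edgeR adjusted p = 0.0306), a call lost without Control replicate 2 or SOD2i replicate 1 or 3 (highest adjusted p = 0.112). Cngl, another channel gene of this family, rose from 0.0996 to 0.267 CPM in Drp1SG and to 0.415 CPM in the double genotype (edgeR adjusted p = 0.0402 and 0.0128). The first of these calls was lost without Control replicate 1, 2 or 3 or Drp1SG replicate 2 or 3, and the second without Control replicate 2 or 3 (highest adjusted p = 0.147 and 0.0571, in that order).

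Of the other kinases and G proteins, Pka-C3, a further catalytic subunit gene, rose in SOD2i from 172 ± 29.3 to 256 ± 50.5 CPM (edgeR adjusted p = 0.0198). That call was lost without Control replicate 1 or 2 or SOD2i replicate 2 (highest adjusted p = 0.0655). Galphao, the alpha subunit of a heterotrimeric G protein, rose from 109 ± 15.3 to 139 ± 10.5 CPM in SOD2i (edgeR adjusted p = 0.0299), and was lost without Control replicate 2 or 3 or SOD2i replicate 1 or 3 (highest adjusted p = 0.143). The cyclic GMP-dependent kinase gene for, Epac, CrebB, Crtc and nej were not called in any comparison. When only the groups compared were fitted, the calls of ACXA, ACXC, Pka-C3, Galphao and CngB in SOD2i, Cngl in Drp1SG and Ih in the double genotype were lost. Upper-quartile scaling also ended those of Pka-C3, Cngl and Ih. The fit with the maternal index ended the Drp1SG calls of Cngl and Ac76E, testing without the filter on low counts ended those of Cngl in Drp1SG and of ACXA and ACXC in SOD2i, and the replicate block ended that of ACXC. A pathway gene call is counted as lost also where the gene no longer passed the filter on low counts. Of the 4 tested guanylyl cyclases and the 2 tested kinase anchors, 0 were called in any comparison.

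Among 4320 tested genes with a mean of at least 5 CPM and a name that is not a number, the 5 whose log2 CPM was most like that of Pde8 over the 12 libraries were DNaseII (r = 0.988), bru3 (0.987), GstD9 (0.965), klg (0.960) and Cul6 (0.953). DNaseII, an acid nuclease gene, averaged 18.5 CPM in Control, 18.8 in Drp1SG and 143 in SOD2i, with 112 in the double genotype. The RNA-binding protein gene bru3 averaged 9.31, 12.6, 26.3 and 23.9 CPM in the same order, and the glutathione S-transferase gene GstD9 11.0, 14.9, 30.0 and 26.7 CPM. The cell adhesion gene klg averaged 8.33, 8.76, 21.8 and 23.9 CPM, and the cullin gene Cul6 25.8, 35.8, 59.0 and 54.4 CPM. All 5 were higher in both SOD2i genotypes than in Control and Drp1SG on the means, with Pde8 and DNaseII showing the larger ratios. These correlations rest on the same 12 libraries and 4 genotype means and are given as a description.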

How the data were processed

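Per the labels' protocols, polyadenylated RNA was captured from 200 ng of total RNA and libraries were made with a kit that marks strand with dUTP. Tools listed in the submitters' processing notes, whose roles are not given, are featureCounts 1.5.2, HISAT2 2.1.0, Trimmomatic, DESeq2 and Bowtie2 2.2.4. The values tested here are raw read counts of each gene as the authors deposited them, beside tables of their own comparisons with a log2 fold change and an adjusted p-value per gene. The genome build and the strand setting are not given in the sources used here, so no coordinates are given.

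The counts were fitted with edgeR 4.0.16 in R 4.3.3 (filterByExpr, TMM, quasi-likelihood fit of all 12 libraries with 1 mean per genotype). A gene was called at an adjusted p under 0.05 over 9863 genes. Log2 CPM used a prior count of 2. Levels per kb used the union of annotated exons in the Ensembl annotation. The floor of 3 counts covers counting error only, because several reads can come from the same molecule when no molecular identifiers are used. The procedure was tested on simulated data.

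The members, the pathway, marker and maternal lists and the tests were chosen with earlier results of these data known. The count of members called in the interaction leaves out Pde8, as in SOD2i against Control, a choice made after its values were seen. All members are named. Of the pathway list, up to 4 called genes per role and comparison are named, by smallest adjusted p. The same-numbered libraries of different genotypes correlated at -0.27 to 0.22 in their deviations from genotype means, so they were not treated as pairs. Alternatives were upper-quartile scaling, size factors and the Wald test of DESeq2 1.42.0, no filter, only the groups compared, replicate number as a block, the maternal index as a covariate, and each library left out in turn. Where that left 2 libraries in a genotype, the spread was pooled over genotypes.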

Additional observations from a re-analysis of the deposited data

Results flagged for a closer look

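The difference made by SOD2i differed with and without Drp1SG, by edgeR's interaction contrast, for 1 of the 9 genes other than Pde8 and for 7 of the 30 tested pathway genes. Over all tested genes 16.5% were called, and neither count is read as particular to these genes. For Pde6 the interaction in log2 was -1.70 (edgeR adjusted p = 0.0405), from single-genotype means of 1.02 CPM in Drp1SG and 0.985 CPM in SOD2i against 0.754 CPM in the double genotype. The Pde6 call was lost in 11 of the 12 fits that left out a library, with SOD2i replicate 2 the exception, and the adjusted p reached 0.0839. It was also lost under upper-quartile scaling, with the replicate block and with the maternal index as a covariate.

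Among the other pathway genes the interaction was -0.57 for the cyclase gene Ac3, -0.79 for Pka-C3 and -1.31 for Ih. It was positive for Ac76E at 4.15, ACXD at 2.16 and CngB at 1.16. For CngA the fitted value was 5.97, which depends on the prior count because SOD2i had 0 reads. The calls of Ac76E (edgeR adjusted p = 3.25e-04) and Ih (edgeR adjusted p = 0.00104) were kept without any single library, and the other 5 were lost without at least 1, with an adjusted p of up to 0.0886. Pka-C3 was lost without Control replicate 1 or 2, Drp1SG replicate 1 or double replicate 1 or 3. CngB was lost without Control replicate 2, Drp1SG replicate 1 or 3, SOD2i replicate 3 or double replicate 2. Ac3 was kept without Control replicate 3, SOD2i replicate 1 or 3 or double replicate 3, ACXD without Control replicate 1, SOD2i replicate 1 or double replicate 3, and CngA without Control replicate 1, Drp1SG replicate 1 or 3 or double replicate 2, and each was lost without any other library. Upper-quartile scaling ended the interaction calls of Ac3 and Pka-C3, the replicate block those of Ac3 and CngA, and testing without the filter on low counts that of ACXD.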

How the results depend on the processing

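Which genes of the 10 were called depended on the fit in several comparisons, and the cause was not tested. In SOD2i against Control, 1 of the 9 genes other than Pde8 was called under upper-quartile scaling and 0 when only these groups were fitted, where 4 other pathway genes were called. In the double genotype against Control, 2 of the 10 were called once the maternal index was a covariate, and 1 other pathway gene under upper-quartile scaling and 1 with only these groups. Against Drp1SG, 2 were called by DESeq2's Wald test, 3 with the covariate and 3 with only these groups, and 5 and 2 other pathway genes in the last pair of fits. Against SOD2i, 2 were called by the Wald test and 2 with the covariate. In the interaction, of the 9 genes other than Pde8, 0 were called under upper-quartile scaling, 2 with the covariate (Pde1c and Pde11) and 0 with replicate number as a block. The block ended the calls of Pde6 there and of rut in Drp1SG. It ended no other call of the 10 genes, and the numbers share only a label.

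With a library left out, the number called of all 10 genes was 2 to 4 in Drp1SG and 1 to 2 in the double genotype against Control, 1 to 1 in the double genotype against Drp1SG and 0 to 2 against SOD2i. Of the 9 genes without Pde8 it was 0 to 2 in SOD2i against Control and 0 to 1 in the interaction. The other pathway genes called numbered 2 to 4 in Drp1SG, 4 to 8 in SOD2i and 0 to 3 in the double genotype against Control, 1 to 2 in the double genotype against Drp1SG, 5 to 7 against SOD2i and 2 to 6 in the interaction.

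Some log2 differences that were not called in the main fit changed sign. With the covariate, those of Pde11 were called in Drp1SG against Control, in the double genotype against Drp1SG and in the interaction (edgeR adjusted p = 0.00407, 0.0108 and 0.0252). Pde9 in Drp1SG was -0.015 under upper-quartile scaling and -0.27 with the covariate. With the covariate, against Control, Pde11 was -0.82 and Pka-R2 -0.25 in Drp1SG, Pde11 -0.064 in SOD2i, and Pde9 -0.030 and Pde11 -0.28 in the double genotype. The double genotype against Drp1SG gave 0.54 for Pde11, 0.068 for dnc, 0.0060 for Pka-R1 and 0.32 for Pka-R2, and against SOD2i -0.22 for Pde11. The interaction gave 0.60 for Pde11 and 0.32 for Pka-R2. With a library left out, against Control, Pde9 ranged from -0.11 to 0.19 in Drp1SG, and in SOD2i Pde9 from -0.35 to 0.10, Pde11 from -0.24 to 0.45, rut from -0.32 to 0.076 and Pka-R2 from -0.21 to 0.45. In the double genotype Pde9 ranged from -0.035 to 0.23, Pde11 from -0.12 to 0.44 and Pka-C1 from -0.056 to 0.017. Against Drp1SG, Pde9 ranged from -0.063 to 0.24 and Pka-R1 from -0.072 to 0.0089, and against SOD2i Pde6 from -0.71 to 0.064, Pde9 from -0.0027 to 0.48 and Pde11 from -0.27 to 0.45. In the interaction Pde9 ranged from -0.035 to 0.41, Pde11 from -0.69 to 0.00017 and Pka-R1 from -0.033 to 0.074. Depth limits Pde6 and the cyclase genes at trace levels, where a library held from 0 to 100 reads.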

Other observations

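Of the 2 genes on each side of Pde8 in the RefSeq gene order, the transcription factor gene retn was the 1 at more than trace levels. It stood at 812, 678 and 584 CPM in Control and at 904, 966 and 979 CPM in SOD2i, a log2 fold change of 0.46 ± 0.10 (edgeR adjusted p = 0.00512), against 2.74 for Pde8. In the double genotype retn stood at 774, 812 and 747 CPM and was not called (log2 fold change 0.17 ± 0.10, edgeR adjusted p = 0.313), where Pde8 was at 2.54. St1 and St3 lay under 0.5 CPM in every library, and lncRNA:CR45153 was listed at 0. At 121 reads over all libraries, St3 was called as higher in Drp1SG against Control (log2 fold change 2.43 ± 0.62, edgeR adjusted p = 0.0182). It was also called as higher in the double genotype against Control (2.96 ± 0.60, edgeR adjusted p = 0.0111) and against SOD2i (1.60 ± 0.52, edgeR adjusted p = 0.0488). St3 was not called in SOD2i against Control (1.36 ± 0.68, edgeR adjusted p = 0.180). No annotated gene overlaps Pde8.

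Genes listed at 0 in all 12 libraries were Gyc76C and rg of the pathway list and the cellularization genes nullo, bnk and Sry-alpha. Cellularizing embryos were collected, so a 0 in this table is not read here as absence of a transcript.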
